A study of Mus musculus with 6 samples.

Results

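The genes described here are 7 targets of the transcription factor p53 that act in DNA repair or in the copying of damaged DNA: Xpc, Ddb2, Ercc5, Polh, Polk, Rrm2b and Gadd45a. They were taken by symbol from the 51810 genes of the deposited series table, all 7 were found, and all 7 passed the filter on low counts. The libraries were made from polyadenylated RNA of mature medullary thymic epithelial cells (mTEChi) sorted from mice aged 4 to 5 weeks, 75000 cells to a sample. The WT group (genotype P53-WT, without Cre) and the cKO group (genotype P53-cKO, a conditional deletion of Trp53, which encodes p53) had 3 libraries each. The labels give neither the Cre driver nor the allele, and leave unsaid whether the libraries of a group come from separate animals, so the spread between libraries may be technical in part.

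p53 is held at a low level in resting cells and is stabilised by DNA damage, after which it binds near its target genes and raises their transcription. Among those targets are genes that find and cut out bulky lesions (nucleotide excision repair), polymerases that copy past a lesion that stops the replicative enzymes, and a source of deoxynucleotides for repair outside S phase. In medullary thymic epithelium, cells transcribe genes of many other tissues under the regulator Aire, and the study as titled links repression of p53 in these cells to noisy chromatin accessibility. The comparison of cKO with WT asks whether the basal transcript level of the repair targets depends on p53 in such cells.

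None of the 7 repair targets passed the threshold in cKO against WT (edgeR quasi-likelihood test, adjusted p between 0.482 and 0.978), and none did with DESeq2 or limma-voom. Over all 28543 genes tested, 17 passed, which is 0.0596%. Polk was the lowest relative to WT, at a log2 fold change of −0.33, and Rrm2b the highest, at 0.19, and in these 2 genes the 3 libraries of one group did not overlap those of the other. In the other 5 the groups overlapped. Among all genes tested 14.4% had groups that did not overlap, and 8.51% had an unadjusted p under 0.05, as did the same 2 of the 7.

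Every library matched its label at the deleted gene. Trp53 had 5351, 4837 and 5314 counts in WT and 386, 361 and 369 in cKO, 109 ± 6.83 against 7.80 ± 0.395 CPM (CPM, counts scaled to a fixed library total after TMM normalization; SD, n = 3). Total counts lay between 45457892 and 50128045. Of the markers of mature medullary epithelium, 16 of 16 were measured, with a summed level of 38710 to 42990 CPM in WT and 39400 to 42480 in cKO. Most of that sum came from Cd74 and the MHC class II genes H2-Aa, H2-Ab1 and H2-Eb1. Among the single genes, Aire, the regulator of tissue-restricted antigens, had 1201 to 1417 CPM in WT and 822 to 1160 in cKO (adjusted p 0.516), and Fezf2, another such regulator, had 430 to 501 and 402 to 408 CPM (adjusted p 0.612). Cldn3, a tight junction gene, had 61.7 to 62.5 CPM in WT and 72.9 to 86.9 in cKO (adjusted p 0.246), and Tnfrsf11a, the receptor RANK, had 285 to 304 and 321 to 334 CPM (adjusted p 0.586). The groups did not overlap for these 4 of the 16 genes and overlapped for the others, where 14.4% of all genes tested had no overlap. The 4 genes were named after their values were seen, and their part in the values of the repair targets was not tested. Markers of other cells were present at a lower level: 932 to 1040 CPM in WT and 948 to 1014 in cKO for 8 cortical genes, 136 to 221 and 127 to 186 for 12 thymocyte genes, 81.3 to 96.7 and 85.6 to 98.8 for 7 B cell genes, 546 to 741 and 653 to 948 for 10 myeloid genes, 174 to 201 and 170 to 208 for 9 fibroblast and endothelial genes, and 73.5 to 81.4 and 49.6 to 72.5 for 6 erythroid genes. The erythroid sums alone did not overlap between the groups, and no marker passed the threshold. In such bulk samples a smaller number of cells that express a gene and a lower level of RNA in each of them cannot be told apart.

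Sequence near the start of the targets was available for 4 of the 7 members (Polk with 2 starts, Polh, Ercc5 and Gadd45a) in the RefSeq promoter table for GRCm38.p6. The p53 half-site consensus, a stretch of 10 bases that reads alike on both strands, was searched without mismatch in the 250 bases before each start. It was found at 7.13% of 32851 promoters of all genes and at 2 of the 5 starts of the members. With 1 mismatch allowed outside the fixed C and G of the consensus, it was found at 44.73% of promoters. Among the members, that search found matches at the same 2 of the 5 starts. The sites without mismatch are shown, in capitals within their flanks, because Gadd45a and Polk are the members whose start regions hold a match.
Gadd45a site, minus strand, half-site at chr6:67037438-67037447: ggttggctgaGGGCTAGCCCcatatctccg
Polk inner start, minus strand, half-site at chr13:96519409-96519418: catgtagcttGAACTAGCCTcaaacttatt

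The Gadd45a match lies 40 to 31 bases before the RefSeq start and inside the first exon of the Ensembl annotation used for counting. The Polk match lies 231 to 222 bases before a start 23392 bases inside the gene, where 3 exon entries of the counting annotation also begin, and the 250 bases before the outer Polk start held none. A match is a run of letters only, and binding of p53 was not measured here.

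Gadd45a is also known for induction that does not need p53, through octamer elements and a CCAAT box in its promoter. The 200 bases upstream of its first annotated exon are printed because Gadd45a is the most abundant of the 7. The capitals mark the octamer ATTTGCAT on the given strand, CCAAT, and the octamer in reverse complement.
Gadd45a upstream, minus strand, chr6:67037458-67037657: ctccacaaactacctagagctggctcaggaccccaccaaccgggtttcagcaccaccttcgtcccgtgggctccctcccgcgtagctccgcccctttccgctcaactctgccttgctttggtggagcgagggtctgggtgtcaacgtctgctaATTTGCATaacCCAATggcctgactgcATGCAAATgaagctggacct

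The octamers lie 97 to 90 and 70 to 63 bases before the RefSeq start, with CCAAT at 86 to 82. On both strands, 1.6% of the 32851 windows held at least 1 octamer, 0.1% held 2 or more, and 33.9% held CCAAT. The motifs do not overlap each other in this window.

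The level per length of the 7 genes spanned a wide range. In the deposited TPM (transcripts scaled to a fixed sum per library after division by length, so that genes can be set side by side), Gadd45a was the highest at 90.8 ± 4.70 in WT and 98.8 ± 10.7 in cKO (SD, n = 3), above 96.3% of the genes listed above 0. Ddb2 followed at 25.6 ± 2.68 and 25.6 ± 0.960 TPM, and then Rrm2b at 13 ± 0.159 and 15.1 ± 1.02. Polk had 8.84 ± 1.31 and 7.13 ± 0.556 TPM, Xpc 6.80 ± 0.935 and 6.45 ± 1.14, Polh 5.66 ± 0.0734 and 5.28 ± 0.410, and Ercc5 5.45 ± 0.733 and 4.72 ± 0.411. The order of the means was the same in both genotypes. In WT every neighbour in this order was set apart by its 3 libraries except Polh and Ercc5, whereas in cKO the libraries of Polk and Xpc, of Xpc and Polh, and of Polh and Ercc5 overlapped. Gadd45a exceeded Ddb2 by 3.55-fold in WT and 3.86-fold in cKO.

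**Figure D1:**
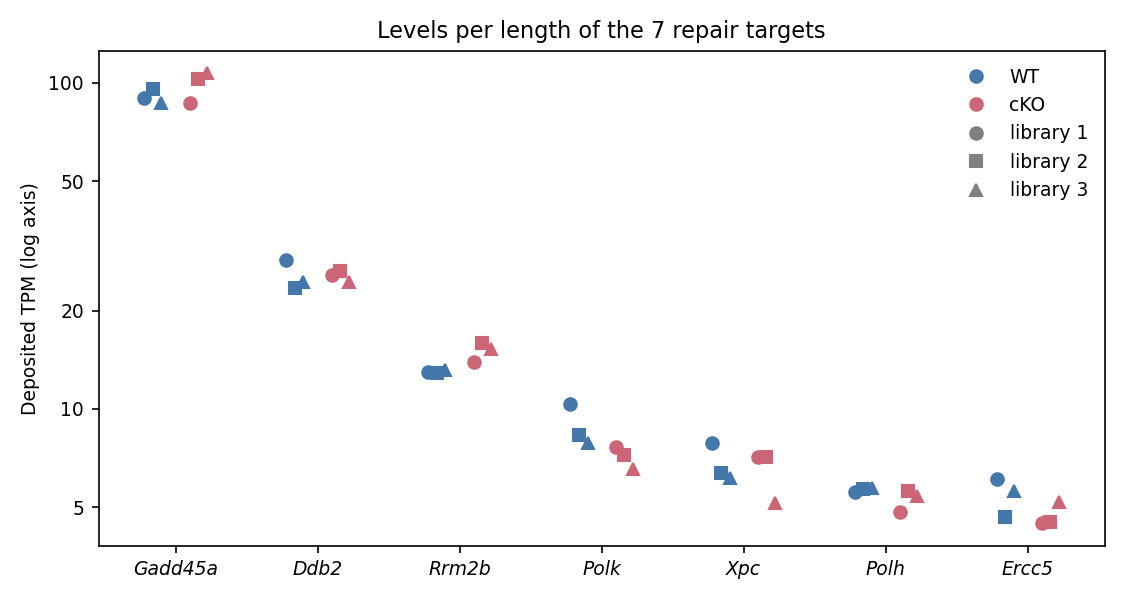
Deposited TPM of the 7 repair targets on a log axis, 1 point per library, with WT in blue, cKO in red and the marker shape giving the library number. Gadd45a stands at 86.7 to 107 TPM in all 6 libraries and Ercc5 at 4.46 to 6.09.

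The lesion sensors of nucleotide excision repair differed little between genotypes. Ddb2 encodes the subunit that recognises ultraviolet lesions in chromatin and recruits a ubiquitin ligase, and is a p53 target in human cells. It had 33.7, 29.3 and 30.0 CPM in WT libraries 1 to 3 and 30.6, 31.2 and 30.0 CPM in cKO libraries 1 to 3. WT library 1 was the highest, and the cKO values lay within the WT range. The log2 fold change was −0.02 (SE 0.0986, 95% interval −0.23 to 0.19, edgeR adjusted p = 0.978), the smallest of the 7. The Ddb2 count is uncertain, because 652 exon bases, 23.8% of its total, overlap exons of Acp2 on the opposite strand, strand was ignored in counting, and Acp2 averaged 3181 counts while Ddb2 had 1387 to 1554. Acp2 itself was at 65.1 ± 3.29 CPM in the WT group and 68.7 ± 2.06 in the cKO group (log2 fold change 0.08, SE 0.0828, adjusted p = 0.857).

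Xpc encodes the protein that binds distorted DNA and starts repair over the whole genome. Its level was 18.6, 15.9 and 15.1 CPM in WT and 16.9, 16.8 and 12.6 CPM in cKO. cKO library 3 was the lowest and WT library 1 the highest, with the other 4 libraries between 15.1 and 16.9 CPM. The log2 fold change was −0.10 (SE 0.144, 95% interval −0.41 to 0.21, adjusted p = 0.901), and without cKO library 3 it was 0.03.

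Ercc5 encodes XPG, the nuclease that cuts on the 3′ side of the lesion. It had 15.3, 12.4 and 14.7 CPM in WT and 11.4, 11.4 and 13.6 CPM in cKO, so cKO library 3 lay within the WT range and the other two below it. The log2 fold change was −0.22 (SE 0.137, 95% interval −0.52 to 0.07, adjusted p = 0.705).

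**Figure D2:**
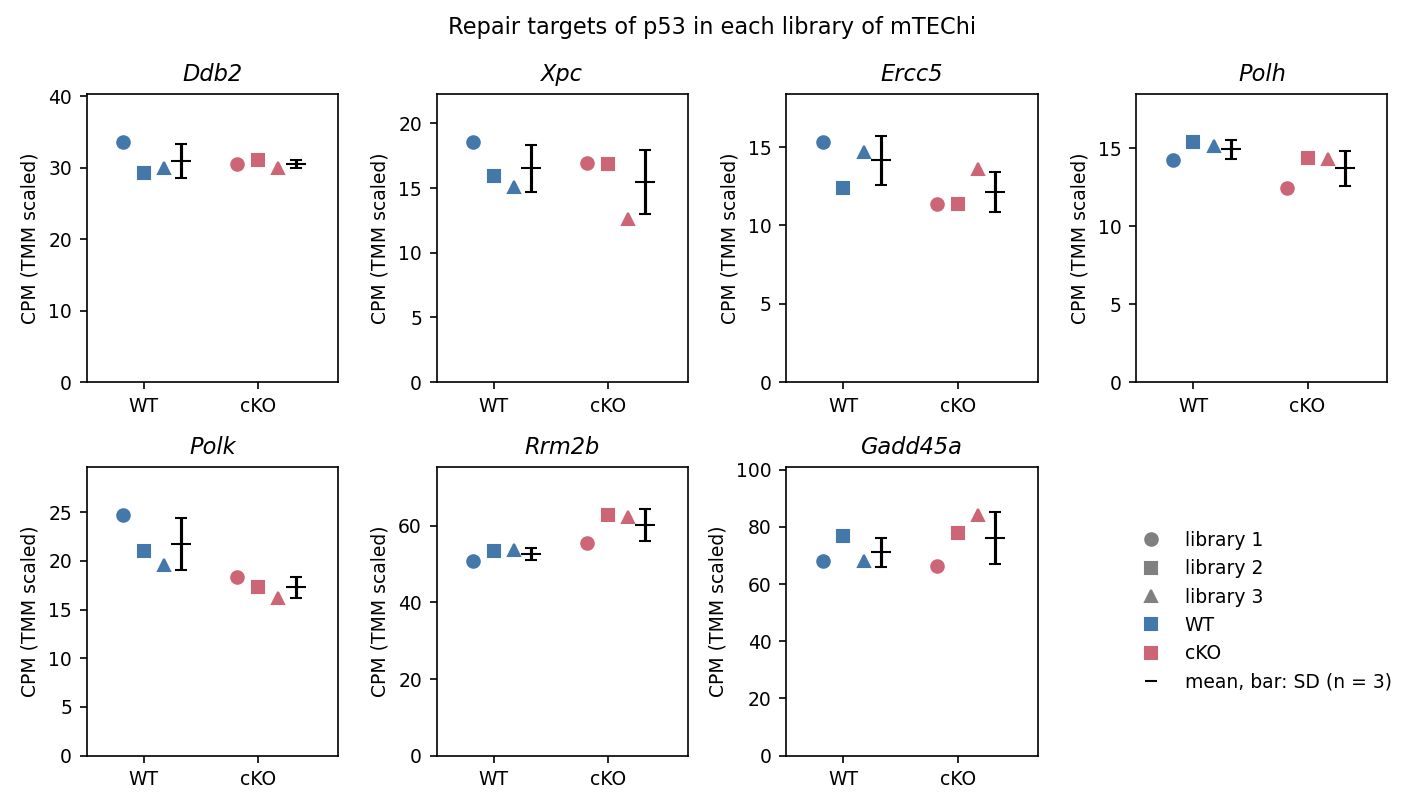
TMM-scaled CPM of each repair target in the 6 libraries, with a vertical axis from 0 in each panel, points for libraries and a bar for the mean and SD of 3. Polk (16.2 to 18.4 CPM in cKO, 19.5 to 24.7 in WT) and Rrm2b (55.4 to 62.8 in cKO, 50.9 to 53.7 in WT) are the panels in which the groups do not overlap.

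Of the lesion bypass polymerases, Polk but not Polh had groups apart. Polk encodes polymerase kappa, a Y-family enzyme that copies past bulky adducts on guanine and also fills gaps in excision repair. It had 24.7, 21.01 and 19.5 CPM in WT and 18.4, 17.3 and 16.2 CPM in cKO, so every cKO library was below every WT library. The log2 fold change was −0.33, 1.26-fold lower (SE 0.122, 95% interval −0.60 to −0.07, unadjusted p = 0.0182, adjusted p = 0.482, edgeR), which does not pass over all genes. Without WT library 1, the highest, the log2 fold change was −0.23 with an unadjusted p of 0.0979. Polh encodes polymerase eta, which copies accurately past ultraviolet dimers. It had 14.3, 15.4 and 15.1 CPM in WT and 12.4, 14.3 and 14.3 CPM in cKO, for a log2 fold change of −0.12 (SE 0.121, 95% interval −0.39 to 0.14, adjusted p = 0.839). Only cKO library 1 lay below the WT range.

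Poli, another Y-family polymerase gene of the lesion bypass list, had 3.25 ± 0.197 TPM in WT and 3.10 ± 0.393 in cKO. Rev1, the Y-family enzyme that inserts dCMP and scaffolds other bypass polymerases, had 5.82 ± 0.904 TPM in the WT group and 5.52 ± 0.562 in the cKO group (log2 fold change of its counts −0.10, SE 0.132). The ratio of Polk to Poli TPM was 3.02, 2.53 and 2.60 in WT and 2.22, 2.28 and 2.45 in cKO, with no overlap (2-sided exact permutation test p = 0.1, the smallest that 3 against 3 libraries allow, and 0.25 adjusted over the 10 ratios computed). The ratio of Polk to Rev1 was 1.52 ± 0.114 in WT and 1.29 ± 0.0340 in cKO, also without overlap (exact permutation p = 0.1, adjusted 0.25). The ratio of Polk to Polh was 1.57 ± 0.254 in WT and 1.36 ± 0.197 in cKO, and its libraries overlapped (exact permutation p = 0.4, adjusted 0.778).

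Rrm2b stood on the other side of 0. It encodes p53R2, a small subunit of ribonucleotide reductase that supplies deoxynucleotides to cells outside S phase and is a p53 target in damaged cells. Its level was 50.9, 53.4 and 53.7 CPM in WT and 55.4, 62.8 and 62.4 CPM in cKO, so every cKO library lay above every WT library, cKO library 1 by the least. The log2 fold change was 0.19, 1.14-fold higher (SE 0.0876, 95% interval 0.00263 to 0.38, unadjusted p = 0.0473, adjusted p = 0.586, edgeR), which does not pass over all genes. With upper-quartile factors or library totals in place of TMM the unadjusted p was 0.0628 and 0.0694. Of its exon bases 8.04% overlap those of Gm49085 on the opposite strand, which averaged 89.7 counts where Rrm2b had 2348 to 3118.

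The other subunits of ribonucleotide reductase had lower means in cKO. Rrm1, the large subunit that both small subunits pair with, had 57.9, 64.1 and 60.1 CPM in WT and 47.6, 51.7 and 44.96 CPM in cKO, with no overlap (log2 fold change −0.34, SE 0.0903, edgeR unadjusted p = 0.00264, adjusted p = 0.301). Rrm2, the small subunit made in S phase, had 29.5, 38.4 and 31.0 CPM in WT and 26.6, 31.4 and 20.3 in cKO, so its groups overlapped (log2 fold change −0.34, SE 0.155, adjusted p = 0.587). Per length, Rrm2b stood at 0.523, 0.422 and 0.525 of the Rrm2 TPM in WT and at 0.632, 0.606 and 0.933 in cKO. The ratio was thus higher in every cKO library, with cKO library 3 far above the others (exact permutation p = 0.1, adjusted 0.25). Beside this, 29 of 30 genes of S phase and mitosis were below 0 (median log2 fold change −0.22, 0 called), against 14544 of 28543 genes tested. At an unadjusted p under 0.05 (edgeR), 12 of the 30 were lower, against 1207 of 28543. The part of the S phase and mitosis list in the ratio of Rrm2b to Rrm2 was not tested. The 3 of smallest p in that list were Ube2c, which starts ubiquitin chains on mitotic cyclins (log2 fold change −0.65, SE 0.141, adjusted p 0.184), Plk1, a mitotic kinase (−0.50, SE 0.109, adjusted p 0.195), and Cenpa, the centromeric histone H3 variant (−0.54, SE 0.139, adjusted p 0.291). Each was lower in all 3 cKO than in all 3 WT libraries, and none passed the threshold.

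**Figure D3:**
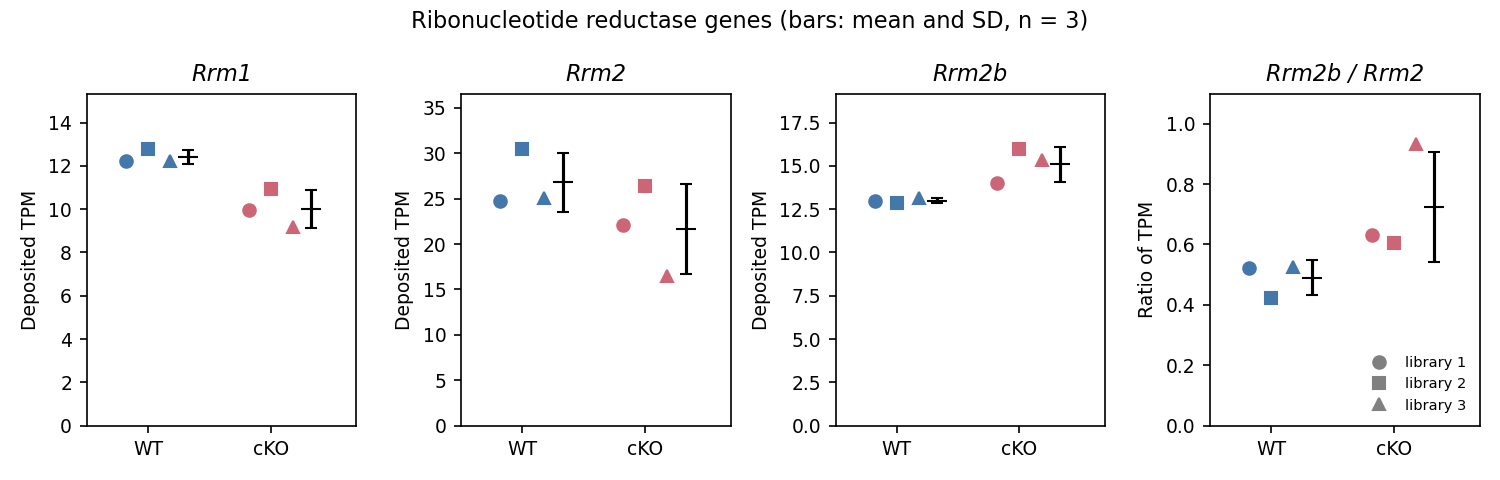
Deposited TPM of the 3 ribonucleotide reductase genes and the ratio of Rrm2b to Rrm2 TPM, by library, with the mean and SD of 3 as a bar and every axis from 0. Rrm1 is lower and Rrm2b higher in all cKO libraries, and the ratio goes from 0.490 ± 0.0590 in WT to 0.724 ± 0.182 in cKO.

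Gadd45a encodes a small protein induced by DNA damage that binds the replication clamp PCNA and activates stress kinase signalling. It had 68.1, 77.0 and 68.2 CPM in WT and 66.4, 77.9 and 84.2 CPM in cKO. The cKO libraries held both the lowest and the highest value of the 6, and the log2 fold change was 0.10 (SE 0.101, 95% interval −0.12 to 0.32, edgeR adjusted p = 0.847). E230016M11Rik, on the opposite strand, shares 337 bases, 19.1% of the Gadd45a exons, but averaged 524 counts where Gadd45a had 3141 to 4208. It stood at 12.8 ± 3.21 CPM in the WT group against 9.36 ± 1.44 in the cKO group (log2 fold change −0.45, SE 0.183, adjusted p = 0.537). The family members Gadd45b and Gadd45g were more abundant than Gadd45a per length, at 228 ± 22.5 and 180 ± 4.66 TPM in WT. For Gadd45b the log2 fold change was −0.23 (SE 0.102, adjusted p = 0.582), and for Gadd45g it was 0.00 (SE 0.0816). The ratio of Gadd45a to Gadd45b TPM was 0.443, 0.390 and 0.369 in WT and 0.481, 0.471 and 0.546 in cKO, without overlap (exact permutation p = 0.1, adjusted 0.25).

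Over the 7 genes the 95% intervals reached no lower than −0.60, 1.51-fold lower, and no higher than 0.38, 1.30-fold higher, and 5 of the 7 covered 0. Cdkn1a, the p53 target that encodes the cell cycle inhibitor p21, had a log2 fold change of −0.90 with an interval of −1.07 to −0.73 in the same fit, below that of every repair target. Ccng1, the cyclin G1 gene, had −0.80 (−0.97 to −0.63). Both were picked from these data, as the genes of smallest p among 36 p53 targets outside repair. The 36 ran from −1.45 to 0.36 (median −0.21), with 29 below 0 and 7 above, so Cdkn1a and Ccng1 do not stand for that list.

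**Figure D4:**
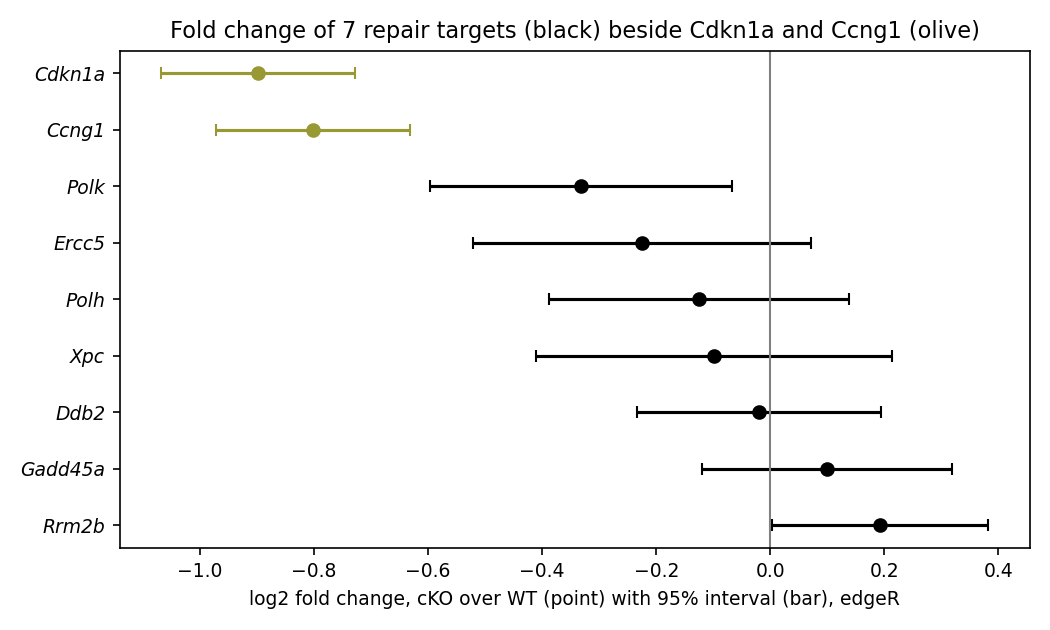
Log2 fold change in cKO over WT (point) with its 95% interval (bar) for the 7 repair targets in black and for Cdkn1a and Ccng1 in olive. The intervals of the repair targets end at −0.60 or above, while those of Cdkn1a and Ccng1 lie between −1.07 and −0.63. Cdkn1a and Ccng1 were picked as the genes of smallest p among 36 p53 targets outside repair.

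Of the other genes of the same pathways, 0 of 69 over 4 lists passed the threshold, where 0.0596% of all genes tested did. At an unadjusted p under 0.05 (edgeR), 1 of the 69 was higher and 3 were lower. Over all 28543 genes tested, these counts were 1222 and 1207. Of 33 other genes of nucleotide excision repair, 18 were above 0 and 15 below, with a median log2 fold change of 0.00. Over all genes tested, 13999 were above 0 and 14544 below. Ddb1, the partner of Ddb2, had 482 ± 14.2 CPM in WT and 498 ± 31.0 in cKO, and Rad23b, the partner of Xpc, 202 ± 14.97 and 202 ± 10.4. Both partners far exceeded the members per length, Ddb1 by 6.67 ± 0.607 and Rad23b by 11.8 ± 1.51 times in WT and by 6.95 ± 0.361 and 12.7 ± 1.85 times in cKO. The smallest p in this list belonged to the ligase gene Lig1 (−0.23, SE 0.112, adjusted p = 0.628), the replicative polymerase gene Pole (−0.22) and the nuclease gene Ercc1 (−0.27, SE 0.156).

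Of 18 genes of lesion bypass, 7 were above 0 and 11 below (median −0.04), against 13999 and 14544 over all genes tested. In 3 of them every cKO library was above every WT library, and in 3 every cKO library was below. Over all 28543 genes tested, these counts were 2039 and 2079. Rev3l, the catalytic subunit of polymerase zeta, which extends from bases placed opposite a lesion, had 44.95, 44.1 and 40.8 CPM in WT and 51.5, 50.7 and 49.98 in cKO, higher in every cKO library (log2 fold change 0.23, SE 0.0867, unadjusted p = 0.0202, adjusted p = 0.494). Pold2 (−0.28, SE 0.149) and Ube2b (0.14, SE 0.0809) followed. Of 14 genes of deoxynucleotide supply, 2 were above 0 and 12 below (median −0.17), against 13999 and 14544 over all genes tested. In 5 of the 14 every cKO library was below every WT library, against 2079 of 28543 genes tested. Dut, which removes dUTP, had 31.1 ± 2.31 CPM in the WT group and 24.5 ± 1.16 in the cKO group (−0.35, SE 0.103, adjusted p = 0.366), with Rrm1 and Rrm2 as the other genes of smallest p. The 4 genes of the Gadd45 family and partners had a median of −0.08, and Gadd45gip1 and Map3k4 had log2 fold changes of −0.17 and 0.04.

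Set beside these, 36 p53 targets outside repair had 3 genes that fell past the threshold, Cdkn1a, Ccng1 and Psrc1 (−1.45, SE 0.217, adjusted p = 0.0424), and none that rose. In that list 29 of 36 were below 0 (median −0.21). Every cKO library was below every WT library in 17 of the 36, against 2079 of 28543 genes tested. At an unadjusted p under 0.05 (edgeR), 16 of the 36 were lower, against 1207 of 28543. A like shift was seen in the list of S phase and mitosis, where 29 of 30 were below 0 (median −0.22). There 12 of 30 were lower at that unadjusted p, every cKO library was below every WT library in 10, and 0 passed the threshold. The 7 repair targets had a median of −0.10 with 5 below 0, against −0.01 and 14544 of 28543 over all genes tested. The list outside repair was chosen with results of these data known, and its difference from the 7 repair targets was not tested. The part of the S phase and mitosis list in its values was not tested either.

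**Figure D5:**
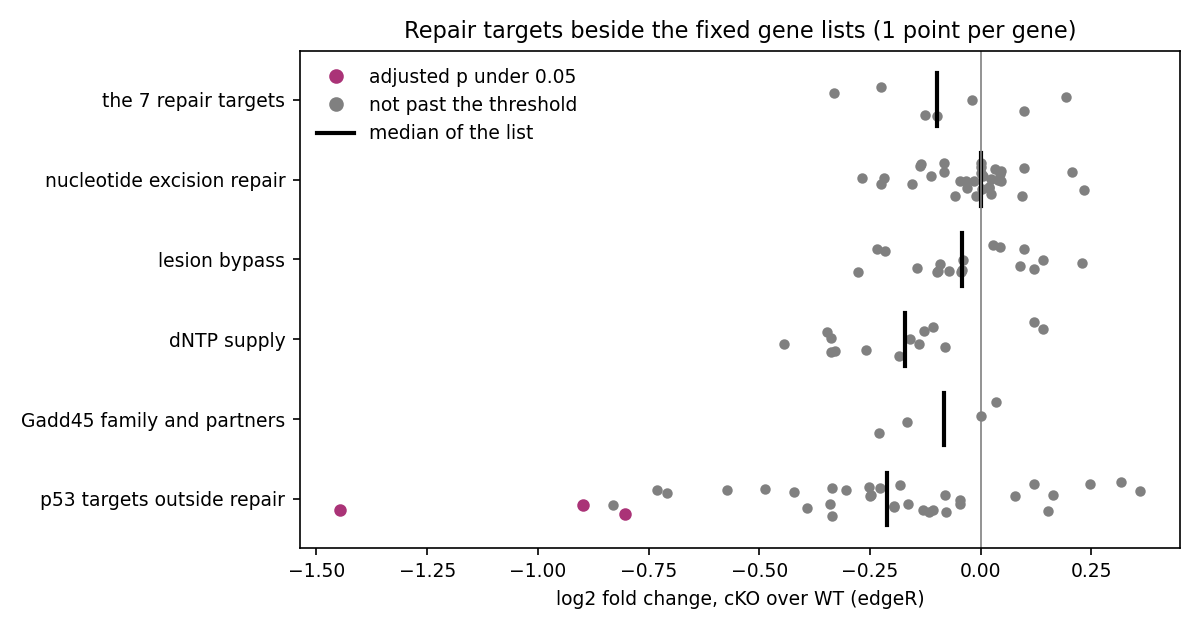
Log2 fold change in cKO over WT, 1 point per gene, for the 7 repair targets and the fixed lists except S phase and mitosis. A black bar marks the median, and genes past the threshold are purple. The list of S phase and mitosis, which is not drawn, had a median of −0.22 with 29 of 30 genes below 0. The repair targets lie between −0.33 and 0.19, and the 3 purple points all belong to p53 targets outside repair.

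The 7 genes did not all share the same highest or the same lowest library, and correlation among them was not computed. WT library 1 was the highest for Xpc, Ddb2, Polk and Ercc5, cKO library 3 the lowest for Xpc and Polk and the highest for Gadd45a, and the highest library exceeded the lowest by 1.15-fold (Ddb2) to 1.53-fold (Polk). Of the 135 genes on the fixed lists, those most like Polk over the 6 libraries by Pearson's r of log2 CPM were Trp53inp1 (0.891), a p53 target that promotes cell death and autophagy, the mitotic gene Cenpf (0.876), and Gtse1 (0.875), which encodes a p53 regulator of the cell cycle. With 6 libraries in 2 groups these values describe likeness only. Trp53inp1 was at 188 ± 12.3 CPM in the WT group and 159 ± 6.21 in the cKO group (−0.25, SE 0.0791, adjusted p = 0.409), and Gtse1 at 18.2 ± 1.58 and 11.1 ± 1.81 (−0.71, SE 0.144, adjusted p = 0.1504).

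The members sit on 6 chromosomes in mm10, by the coordinates of the count files. Xpc (ENSMUSG00000030094, chromosome 6, 91489305 to 91515888) and Gadd45a (ENSMUSG00000036390, chromosome 6, 67035096 to 67037457) share a chromosome. The others are Ddb2 (ENSMUSG00000002109, chromosome 2, 91211572 to 91236982), Polk (ENSMUSG00000021668, chromosome 13, 96480690 to 96542579), Polh (ENSMUSG00000023953, chromosome 17, 46171355 to 46202645), Rrm2b (ENSMUSG00000022292, chromosome 15, 37923952 to 37961318) and Ercc5 (ENSMUSG00000026048, chromosome 1, 44147744 to 44181260). Gadd45a is the shortest, with 1.764 kb of exons, and Rrm2b the longest, with 9.134 kb. No other gene's exons overlap those of Xpc, Ercc5, Polh or Polk.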

How the data were processed

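The authors deposited raw counts of reads per gene for each library and a series table with the same counts and TPM for 51810 of 55385 genes. TopHat2 2.1.1 and the build mm10 are named in the submitters' processing notes, and per the file headers featureCounts 2.0.0 summed exons of Ensembl release 99 without regard to strand, counting a read for every gene it overlaps and each mate on its own. The deposited TPM are counts per exon length, scaled to a fixed sum per library. 1 further column of values, which names no sample, was not used. Here the counts of all genes were fitted with edgeR 4.0.16 in R 4.3.3 (TMM, filterByExpr, robust quasi-likelihood F test, group only), adjusted by Benjamini-Hochberg over 28543 genes, with a threshold of 0.05. SE is the log2 fold change over the root of F, and 95% intervals use the t distribution at the fitted degrees of freedom. The fit was tested on simulated data. Alternatives were DESeq2 1.42.0, limma 3.58.1, other scalings and filters, a replicate block and each library left out. TPM served for levels and ratios between genes. Promoter sequences come from RefSeq (GRCm38.p6). No library duplicated another (chi-square per gene 14.7 to 31.0). Named were all members, partners and paralogs, genes that share exons with a member, the 3 genes of smallest p in each list, and the 3 most like the member of smallest p. Members and lists were chosen with earlier results of these data known, and the ratios and motif searches were added after the data were seen.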

Additional observations from a re-analysis of the deposited data

How the results depend on the processing

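None of the 7 repair targets was called under any of the 16 alternatives (lowest adjusted p = 0.211, Polk with the replicate block), and 109 of 112 log2 fold changes kept their sign. The exceptions were Xpc without cKO library 3 (0.0300, where leaving out 1 library gave −0.168 to 0.0300) and Ddb2 with limma on log2(TPM + 1) (0.00604) and without WT library 1 (0.0439, where leaving out 1 library gave −0.0577 to 0.0439). Polk had an unadjusted p under 0.05 in 13 of the 16 and Rrm2b in 4. No other gene of the 4 pathway lists was called under any alternative. The count of p53 targets outside repair, 3 in the reported fit, was 7 without a filter on low counts, 8 with the replicate block, 8 with DESeq2 and 0 with limma on log2(TPM + 1). The 17 calls over all genes became 6 without robust estimation, 160 without the filter, 203 with the replicate block, 181 with DESeq2, 5 with limma-voom and 1 with limma on TPM, and lay between 6 and 16 with 1 library left out (7 without WT library 1, 6 without WT library 3 and 7 without cKO library 2). The causes were not tested. The labels leave unsaid what libraries of the same replicate number share. Deviations of same-numbered libraries correlated weakly, at 0.113, 0.054 and 0.075, although each library correlated best with its own number. With 3 libraries in each group the 95% intervals of the repair targets reached as far as 1.51-fold lower (Polk), and changes inside them were not resolved.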
